A study of Mus musculus with 18 samples.

Results

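The Bcl2 family holds the proteins that set the threshold for mitochondrial cell death, and its transcripts were followed here in mouse embryonic stem cells (ESCs) after inhibition of PI3K or loss of Max. The members were the genes Bcl2, Bcl2l1 and Mcl1, which are anti-apoptotic, and Bax, Bak1, Bcl2l11, Bbc3, Bid, Bad and Bmf, which are pro-apoptotic. Their probe sets were taken by symbol from the annotation of the array, while the members themselves were chosen with earlier results of these data known. Of the 10 named genes 9 had a probe set that named them alone, with 31 probe sets in all among 45101 on the array and 18193 named genes. Bax is not analysed here.

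RNA was measured on 18 Affymetrix arrays, 1 per sample, and each treated sample was set against the untreated sample that its description names. All cells were EBRTcH3 ESCs, a male line of 129SV background, or derivatives of it. Parental ESCs in serum had 2 untreated samples, 2 samples treated for 5 days and 1 treated for 2 days with LY294002, a small molecule that blocks PI3K. ESCs overexpressing wild-type c-Myc and ESCs overexpressing c-Myc T58A, a mutant known to be degraded less readily, each had 1 untreated sample, 1 at day 2 and 1 at day 5 of LY294002. Culture in 2i, which blocks MEK and GSK3, gave 1 untreated parental sample and 1 at day 5 of LY294002. Max-null ESCs, in which doxycycline (Dox) ablates the expression of Max, the partner of c-Myc in DNA binding, had 1 untreated sample, 1 at day 4 and 1 at day 6 of Dox. Cells of the Max-null type that overexpress p110 alpha (a catalytic PI3K subunit) gave 1 sample without and 1 with Dox, for a time that the labels do not give. The c-Myc and Max-null lines were each represented by 1 line, and the labels state neither the promoters of the constructs nor separate cultures. The p-values below therefore measure the spread between these samples, which may be technical. One label of the untreated T58A array speaks of N-Myc in place of c-Myc, so the T58A group rests on the other labels.

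In the textbook account, BH3-only proteins such as Bim (gene Bcl2l11), Puma (Bbc3), Bid, Bad and Bmf bind the anti-apoptotic proteins Bcl-2, Bcl-xL (Bcl2l1) and Mcl-1. This frees or activates the effectors Bax and Bak, which open the outer mitochondrial membrane and release cytochrome c. PI3K acts on the family through Akt, which phosphorylates Bad and keeps the FOXO transcription factors, known activators of Bcl2l11 and Bbc3, out of the nucleus. Myc is known to prime cells for death through several of the same genes, and ESCs are known for a high readiness to die.

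All values are log2 levels from RMA, a method that summarises the probes of a probe set after background correction and normalization. The probe set of highest mean level represented each gene, and a level above 4.64, the 40th percentile of the table, was required on at least 2 arrays of a fit. All 9 measured members lay above it on all 18 arrays, so none was lost to the filter and none depended on 1 group to pass it. Array medians were 5.03 to 5.05 on the 4 arrays from 2i and from parental serum replicate 1, and 5.31 to 5.52 on the other 14, the highest on Max-null day 6. These 4 arrays thus appear to come from a separate RMA run, although no label says so, and every test compares arrays within a pair or line. All 8 ESC markers, among them Pou5f1, Nanog and Sox2, lay above the level on every array, while the fibroblast genes Col3a1, Lum and Postn and the blood genes Ptprc, Cd52 and Tyrobp were above it on none. The other genes of these lists were not absent. The fibroblast gene Thy1 and the blood gene Laptm5 were above the level on all 18 arrays, Col1a2 on 14, Dcn on 9 and Col1a1 on 1. In bulk RNA, fewer cells of a type and less RNA per cell cannot be told apart. Max read 8.17 to 8.71 in the 13 parental and c-Myc arrays and 6.33 to 7.18 in the 5 Max-null arrays, with 7.09, 6.89 and 7.18 in the Max-null samples untreated and at Dox days 4 and 6. Myc read 7.51 in untreated cells with wild-type c-Myc, 6.99 in those with the T58A mutant, and 9.30 and 7.43 in the untreated parental ones. Pik3ca, the gene of p110 alpha, read 8.82 in the untreated p110 alpha line, 8.50 in untreated Max-null and 8.86 in untreated parental replicate 2 cells, so overexpression was not visible in this probe set, and neither was that of Myc. None of these probe sets is known to cover the ablated part or the introduced cDNA, so the values check no label.

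Promoters are shown first for Bcl2l11, Bmf and Bid, which passed a test or reached 2-fold in a treated pair, and for Bbc3, which did neither. Bcl2l11 and Bbc3 are textbook FOXO targets, and Myc-Max binds the E-box. Bbc3 promoter 1 and Bmf promoters 1 and 3 held neither motif and are not printed. The sequences are the 250 bases before a transcription start in RefSeq on GRCm38.p6, 5′ to 3′ on the gene's strand, and they were searched on both strands for the FOXO motif GTAAACA and the E-box CACGTG, which do not overlap each other. Capitals mark a motif or its reverse complement, and lower case is all other sequence.
Bcl2l11 promoter 1, chr2:128125788-128126037, plus strand: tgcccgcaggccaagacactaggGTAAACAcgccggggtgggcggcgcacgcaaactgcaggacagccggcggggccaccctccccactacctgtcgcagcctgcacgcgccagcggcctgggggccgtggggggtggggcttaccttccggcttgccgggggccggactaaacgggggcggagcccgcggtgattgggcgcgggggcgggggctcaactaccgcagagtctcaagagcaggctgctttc
Bcl2l11 promoter 2, chr2:128127325-128127574, plus strand: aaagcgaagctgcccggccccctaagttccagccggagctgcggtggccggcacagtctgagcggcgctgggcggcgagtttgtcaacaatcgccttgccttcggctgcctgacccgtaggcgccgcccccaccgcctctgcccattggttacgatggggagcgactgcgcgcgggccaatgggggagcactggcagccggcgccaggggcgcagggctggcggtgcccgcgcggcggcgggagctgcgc
Bbc3 promoter 2, chr7:16310011-16310260, plus strand: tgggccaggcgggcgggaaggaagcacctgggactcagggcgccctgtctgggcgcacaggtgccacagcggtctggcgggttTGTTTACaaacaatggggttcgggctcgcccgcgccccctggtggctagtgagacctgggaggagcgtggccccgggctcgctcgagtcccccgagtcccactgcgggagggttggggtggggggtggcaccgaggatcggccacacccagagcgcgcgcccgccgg
Bbc3 promoter 3, chr7:16310181-16310430, plus strand: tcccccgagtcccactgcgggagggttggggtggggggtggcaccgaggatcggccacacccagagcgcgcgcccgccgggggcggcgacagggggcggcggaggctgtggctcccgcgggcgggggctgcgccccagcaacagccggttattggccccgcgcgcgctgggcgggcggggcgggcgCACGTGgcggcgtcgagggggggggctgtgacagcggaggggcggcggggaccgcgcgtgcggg
Bmf promoter 2, chr2:118549687-118549936, minus strand: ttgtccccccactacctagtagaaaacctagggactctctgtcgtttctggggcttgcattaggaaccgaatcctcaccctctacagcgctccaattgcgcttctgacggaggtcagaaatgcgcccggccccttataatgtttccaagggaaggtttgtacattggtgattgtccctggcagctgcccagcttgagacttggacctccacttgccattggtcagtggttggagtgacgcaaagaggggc
Bid promoter 1, chr6:120916825-120917074, minus strand: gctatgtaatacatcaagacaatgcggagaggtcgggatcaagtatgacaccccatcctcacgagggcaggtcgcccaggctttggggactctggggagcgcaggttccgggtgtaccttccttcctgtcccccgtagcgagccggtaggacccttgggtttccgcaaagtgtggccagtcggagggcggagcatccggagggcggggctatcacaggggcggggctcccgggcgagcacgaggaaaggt
Among the 18 promoters listed for the 10 members, the FOXO motif was in 2, Bcl2l11 promoter 1, 227 bases before the start, and Bbc3 promoter 2, 167 bases before the start. The E-box was in 2 others, Bbc3 promoter 3, 64 bases before the start, and the Bax promoter, 9 bases before the start. Over all 32851 promoters of that length, 3.17% held the FOXO motif and 6.02% the E-box. A match describes these letters in this window alone. Bbc3 promoters 2 and 3 overlap, since their starts lie close together, and the windows printed for Bmf and Bid held neither motif. The Bcl2l11 gene spans chr2:128126038-128162547 and Bmf chr2:118528757-118549686, in both cases by RefSeq, while Bbc3 spans chr7:16308398-16318334 and Bid chr6:120893119-120917062.

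**Figure D1:**
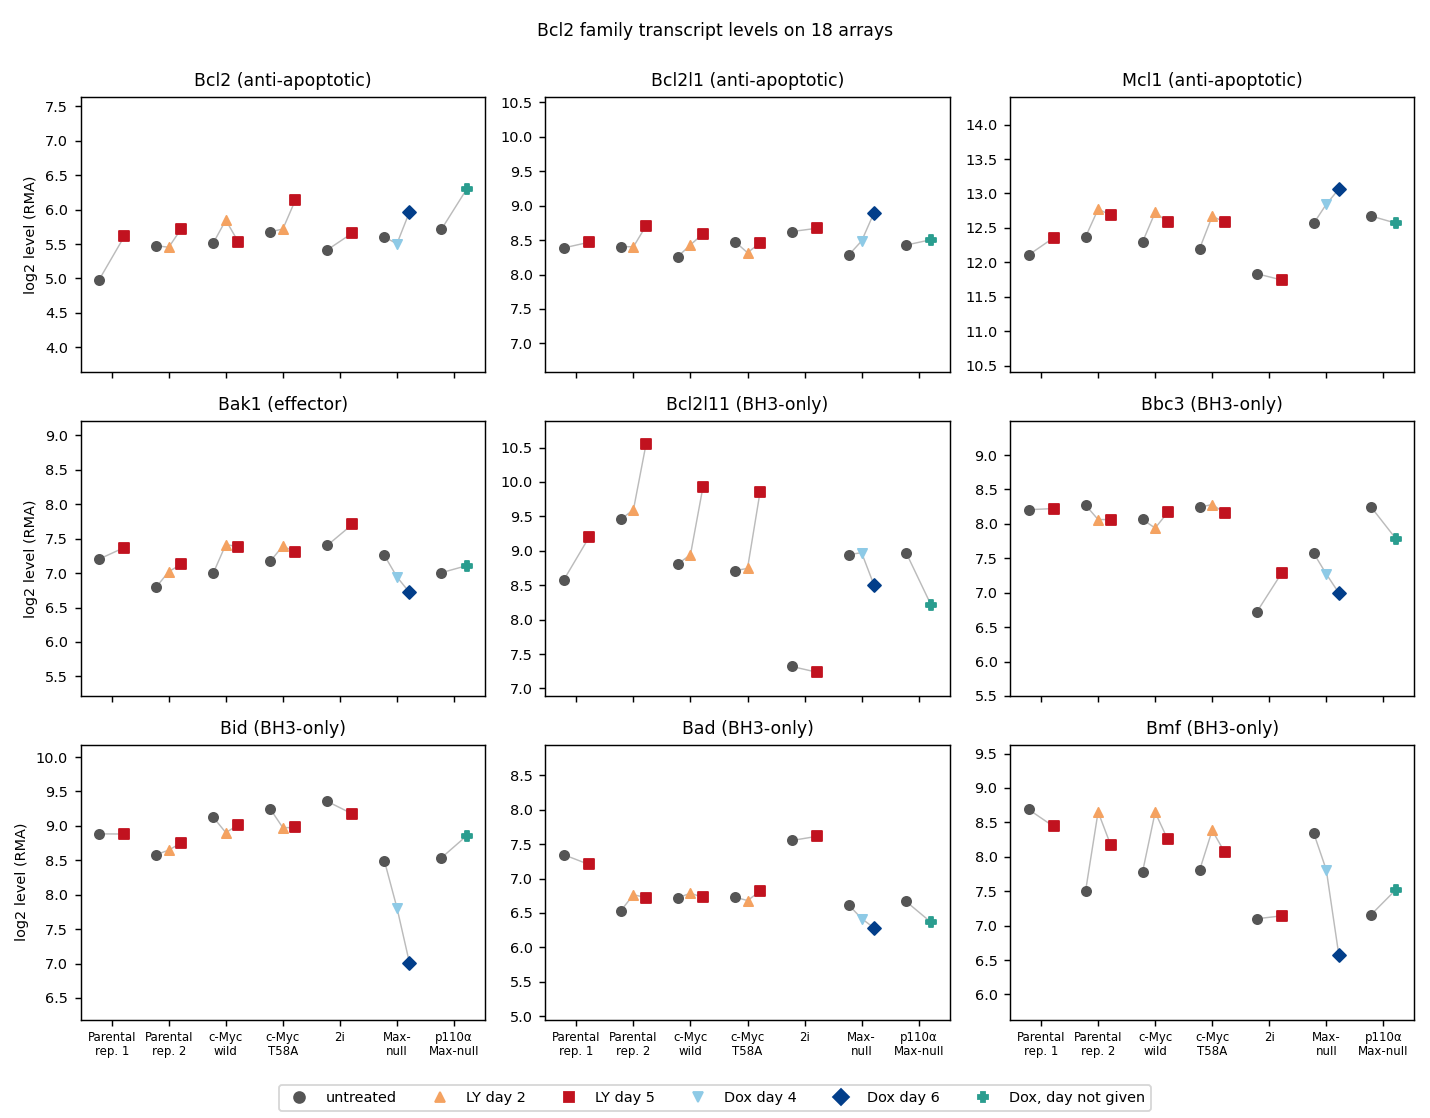
Log2 RMA level (vertical axis, a span of equal width in every panel) of each measured member on the 18 arrays, by cell line (horizontal axis), with symbols for the treatment and grey lines from each untreated array to its treated arrays. Each symbol is 1 array and carries no error. Bcl2l11 reads 9.19 to 10.55 at day 5 of LY294002 in serum against 8.58 to 9.46 untreated, and Bid and Bmf reach 7.01 and 6.57 in Max-null ESCs at day 6 of Dox.

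Among the 9 measured members, the BH3-only gene Bcl2l11, which encodes Bim, showed the largest change at day 5 of LY294002 in the serum cultures fitted together. Untreated parental cells in serum read 8.58 in replicate 1 and 9.46 in replicate 2, while cells with wild-type c-Myc read 8.81 and those with T58A c-Myc 8.71. At day 2 the level was 9.60 in parental, 8.94 in wild-type c-Myc and 8.74 in T58A c-Myc ESCs. By day 5 parental replicates 1 and 2 read 9.19 and 10.55, and the wild-type and T58A c-Myc lines 9.93 and 9.85. Each day 5 sample lay above its own untreated sample, by 0.62, 1.09, 1.12 and 1.14, but the groups overlapped, because treated parental replicate 1 read less than untreated parental replicate 2. In a fit of 9 arrays (untreated, day 2 and day 5 of parental replicate 2, wild-type and T58A c-Myc cells, line as block), Bcl2l11 rose 2.17-fold by day 5 (1.12 ± 0.07, SE, n = 3 lines; limma adjusted p = 9.5e-05). The day 2 change of 0.10 ± 0.07 did not pass (adjusted p = 0.304), and the rise from day 2 to day 5 passed (1.02 ± 0.07; adjusted p = 0.00445).

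In that fit 25.7% of the 13420 genes tested rose by day 5 and 18.5% fell, while from day 2 to day 5 it was 1.23% and 1.12%, together 2.35%. Bcl2l11 was the only one of the 9 members to pass from day 2 to day 5. An unadjusted p under 0.05 was found for 2 of the 9 in that step, and for 3161 of all 13420 genes. Leaving out either c-Myc line kept the direction of the Bcl2l11 step from day 2 to day 5, but it no longer passed, with adjusted p-values of 0.185 without the wild-type and 0.0839 without the T58A line. In limma's fit of the 8 arrays of the 4 day 5 pairs, which shares 6 arrays with the other fit, the change was 0.85 ± 0.15 in the 2 parental pairs (adjusted p = 0.0987) and 1.13 ± 0.15 in the c-Myc lines (adjusted p = 0.0486). Leaving out parental replicate 1 or 2 gave parental changes of 1.09 (adjusted p = 0.00474) and 0.62 (adjusted p = 0.0385), each from a single pair taken to vary like the c-Myc pairs. Leaving out 1 of the c-Myc lines ended the call in the c-Myc lines, with adjusted p-values of 0.523 without T58A and 0.637 without wild-type, and so did fitting without the pair as a block (0.318). The c-Myc change exceeded the parental one by 0.28 ± 0.21 (95% interval -0.29 to 0.85; adjusted p = 0.996), so a difference between them was not detected, nor was one excluded. In that fit 1.09% of genes rose in the c-Myc lines and 0.112% in the parental pairs.

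Bmf, a BH3-only gene whose product is known to be tethered to the cytoskeleton, rose at both days. The untreated levels were 7.50 in parental replicate 2, 7.78 in wild-type c-Myc and 7.81 in T58A c-Myc ESCs. At day 2 they read 8.65, 8.65 and 8.38 and at day 5 they read 8.17, 8.25 and 8.06, in the same order. Neither day overlapped with the untreated arrays in these 3 lines, and all 3 lines read higher at day 2 than at day 5. This held for the probe set used. In 1458325_x_at parental cells at day 2 read 5.90 and untreated T58A c-Myc cells 6.04. How many of all genes separate in this way was not counted. Bmf rose 1.82-fold at day 2 (0.86 ± 0.11, SE, n = 3 lines; limma adjusted p = 0.00166) and 1.38-fold at day 5 (0.47 ± 0.11; adjusted p = 0.0106). The difference of day 5 from day 2, -0.40 ± 0.11, did not pass (adjusted p = 0.0941). Parental replicate 1 went the other way, from 8.69 untreated to 8.44 at day 5, and the parental change in the 8-array fit was 0.21 ± 0.24 (adjusted p = 0.628). It was 0.67 without replicate 1 (adjusted p = 0.0193) and -0.25 without replicate 2. In the c-Myc lines that fit gave 0.36 ± 0.24 (adjusted p = 0.389), and 18.3% of genes rose at day 2 in the 9-array fit. Without the wild-type c-Myc line the day 5 rise of Bmf kept its size but no longer passed (0.46; adjusted p = 0.0957).

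Mcl1, an anti-apoptotic gene whose protein is known for rapid turnover, rose modestly at both days. Its untreated levels were 12.37, 12.30 and 12.20 in parental replicate 2, wild-type and T58A c-Myc ESCs. They became 12.77, 12.73 and 12.67 at day 2 and 12.69, 12.58 and 12.59 at day 5. All 6 treated arrays of these lines thus read above all 3 untreated ones in the probe set used. Parental replicate 1 read 12.11 untreated and 12.36 at day 5, so its treated array lay below untreated replicate 2. In 1437527_x_at the arrays of these lines overlapped, with 11.70 in T58A c-Myc ESCs at day 2 and 11.96 in untreated parental replicate 2. How many of all genes separate in this way was not counted. The change of Mcl1 was 0.43 ± 0.07 at day 2 (1.35-fold; SE, n = 3 lines; limma adjusted p = 0.00323) and 0.33 ± 0.07 at day 5 (1.26-fold; adjusted p = 0.00531). Both missed the threshold without the wild-type c-Myc line, at adjusted p-values of 0.0729 and 0.0756. In the 8-array fit it was 0.29 ± 0.11 in parental pairs and 0.34 ± 0.11 in c-Myc lines, and neither passed (adjusted p = 0.228 and 0.138).

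The other anti-apoptotic genes did not pass at either day in limma's fits. Bcl2, the founding member, read between 4.98 and 6.29 over the 18 arrays, close to the level filter, and its day 5 changes in the 4 serum pairs were 0.63, 0.25, 0.02 and 0.46. The fit gave 0.44 ± 0.17 in parental pairs (adjusted p = 0.238) and 0.24 ± 0.13 in the 9-array fit at day 5 (adjusted p = 0.187). Bcl2l1, which encodes Bcl-xL, stayed between 8.26 and 8.90, the narrowest range of the 9 members, with 0.20 ± 0.09 at day 5 in the 9-array fit (adjusted p = 0.108). Without the T58A line this became 0.32 and passed (adjusted p = 0.0474).

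Bak1, the measured effector, read 6.80, 7.00 and 7.17 untreated in parental replicate 2, wild-type and T58A c-Myc ESCs. It read 7.02, 7.42 and 7.39 at day 2 and 7.13, 7.38 and 7.31 at day 5. Every line moved up, although untreated T58A cells read above treated parental cells. Bak1 rose by 0.29 ± 0.08 at day 2 (1.22-fold; SE, n = 3 lines; limma adjusted p = 0.0317) and by 0.28 ± 0.08 at day 5 (1.22-fold; adjusted p = 0.0237). The day 2 call was lost with each of the 3 lines left out, at adjusted p-values of 0.0640 to 0.308. The day 5 call was lost without parental replicate 2 (0.0900) and without wild-type c-Myc (0.225), and both calls were lost under quantile normalization (adjusted p = 0.0832 and 0.106).

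With 1 probe set per gene, Bbc3, Bid and Bad did not pass with LY294002 in serum in any of limma's fits. Bbc3, which encodes Puma, stayed between 7.94 and 8.28 on all serum arrays of the parental and c-Myc cells. Its change was -0.06 ± 0.09 at day 5 in the 9-array fit (95% interval -0.28 to 0.15), so a rise of the size seen in Bcl2l11 lay outside the interval. Bid, which links death receptors to mitochondria once cleaved, changed by -0.07 ± 0.10, and Bad, the Akt substrate, by 0.09 ± 0.08. In sum 4 of the 9 measured members rose and none fell at day 5 in the 9-array fit, where 44.1% of all genes tested passed. At day 2 it was 3 and none, with 30.5% of all genes passing, so both shares lay near the background. By role, 1 of 3 anti-apoptotic members rose at each day, and 2 of 6 pro-apoptotic members at day 2 and 3 of 6 at day 5. In a limma fit over all 18 arrays, which pools the spread of every group, Mcl1 at both days and Bcl2l11 at day 5 still passed, while Bmf (adjusted p = 0.120 and 0.420 at days 2 and 5), Bak1 (0.165 and 0.111) and the Bcl2l11 step from day 2 to day 5 (0.164) did not. The median day 5 change was 0.24 for the anti-apoptotic and 0.19 for the pro-apoptotic members, against 0.05 over all genes.

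In the 8-array fit none of the 9 passed in parental pairs, where 0.53% of genes did. An unadjusted p under 0.05 was found for 2 of the 9 there, and for 2927 of all 13404 genes. In the c-Myc lines 1 passed, against 2.62% of genes, and none passed for the difference between the lines, where 0% of genes passed and 457 of 13404 had an unadjusted p under 0.05. Markers of other cell types moved in the same 9 arrays. The mean level of the 8 trophoblast markers was 5.80 to 5.96 untreated, 5.72 to 6.23 at day 2 and 6.49 to 6.99 at day 5, and 4 of the 6 tested rose by day 5, although Elf5 and Gata3 were above the level on no array. In parental replicate 1 it was 5.89 untreated and 5.94 at day 5. That of the 6 neural markers was 5.98 to 6.03 untreated and 5.25 to 5.35 at day 5, where 1 of the 4 tested rose and 2 fell. In parental replicate 1 the neural mean was 5.24 untreated and 5.33 at day 5. The mean of the 8 ESC markers lay between 11.63 and 11.84 on all 9 arrays. Single ESC markers did move, since 2 of the 8 rose and 3 fell at day 2 and again at day 5. Of all genes 30.5% and 44.1% passed at these days. The part of these markers in the changes of the members was not tested.

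**Figure D2:**
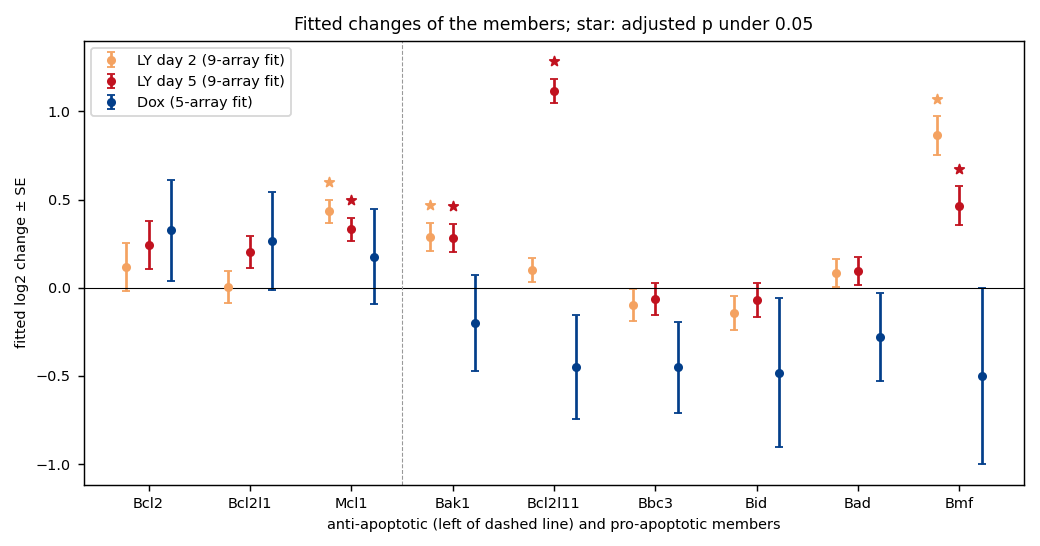
Fitted log2 change ± SE (vertical axis) of each measured member (horizontal axis) at day 2 and day 5 of LY294002 in the 9-array fit and with Dox in the 5-array fit, with a star where limma's adjusted p was under 0.05. Stars stand over Mcl1, Bak1 and Bmf at both days and over Bcl2l11 at day 5 (1.12), and none stands over a Dox change.

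At 2-fold, single pairs had 4 hits in serum. Bcl2l11 was the only member past it at day 5, in parental replicate 2, wild-type and T58A c-Myc cells, where 6.17%, 4.13% and 3% of genes were at least 2-fold higher (10.2%, 7.45% and 5.98% in either direction). Parental replicate 1 had no such member, where 3.75% of genes passed in either direction. At day 2 Bmf passed in parental cells, where 3.66% of genes were at least 2-fold higher (6.37% in either direction), and no member passed in wild-type or T58A c-Myc cells, where 4.01% and 2.57% of genes did.

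In 2i the response of Bcl2l11 was not seen. Its level was 7.32 untreated and 7.23 at day 5 of LY294002, a change of -0.08 in 1 pair, against 0.62 to 1.14 in the 4 serum pairs. Mcl1 also read lower, 11.83 and 11.74, while all 4 serum pairs read higher by 0.25 to 0.39. That contrast rests on the probe set used, since 4 of the 6 Mcl1 probe sets also read lower in parental serum replicate 1, with changes of -0.11 to -0.05. For Bcl2l11 all 5 probe sets read higher in every serum pair at day 5 and 4 of 5 read lower in 2i, with 0.48 for 1456006_at. Bbc3 showed the largest change of a member in 2i, from 6.72 to 7.29 (0.57), against -0.21 to 0.10 in serum. With 1 pair the 2i values have no test, and no member differed by 2-fold, where 2.67% of genes did.

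The untreated arrays of 2i and of parental serum replicate 1 share the inferred RMA run and differed by over 2-fold for 3 of the 5 BH3-only members. Bmf read 7.10 in 2i and 8.69 in serum, a 3.01-fold lower level, Bbc3 6.72 and 8.21 (2.81-fold lower) and Bcl2l11 7.32 and 8.58 (2.39-fold lower). The Bmf probe sets disagreed, since 1458325_x_at read 6.16 in 2i and 5.87 in serum, and 1422995_at 4.59 and 5.61. The other 6 members differed by less than 1.39-fold in either direction, and Bid was the highest of them in 2i relative to serum (9.36 against 8.88). These are 3 of 9 members, and of all genes 2.78% read at least 2-fold lower and 3.05% at least 2-fold higher in 2i. Each side is 1 array, so no test was possible.

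**Figure D3:**
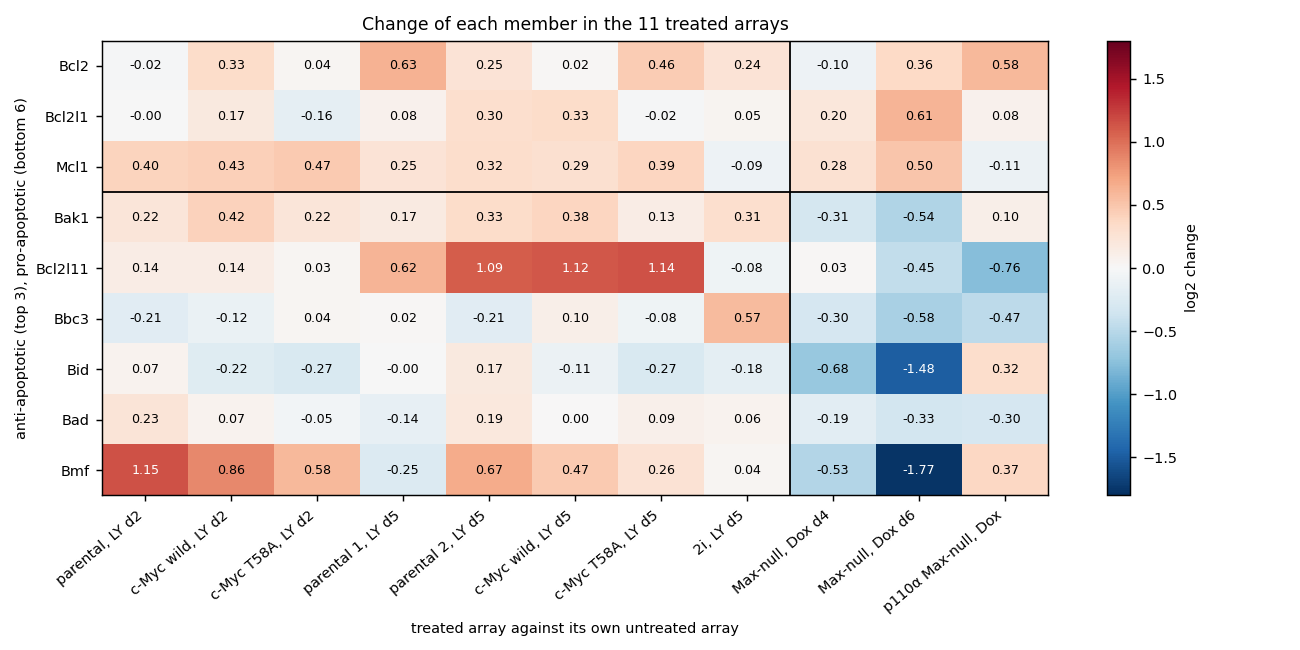
Log2 change of each measured member (rows, anti-apoptotic above the line) in each of the 11 treated arrays against its own untreated array (columns, LY294002 left and Dox right of the vertical line), with the value in each cell and red for higher, blue for lower. Bcl2l11 reads 1.09 to 1.14 in 3 day 5 pairs in serum and -0.08 in 2i, and Bmf and Bid read -1.77 and -1.48 in Max-null ESCs at day 6 of Dox.

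At day 6 of Dox in Max-null ESCs the anti-apoptotic and pro-apoptotic members read in opposite directions, with no replicate. Bid read 8.49 untreated, 7.81 at day 4 and 7.01 at day 6, so it was 2.80-fold lower at day 6. Bmf read 8.34, 7.81 and 6.57 and was 3.41-fold lower at day 6. Bbc3 read 7.57, 7.27 and 7.00, and Bak1 read 7.26, 6.95 and 6.72. Bcl2l11 read 8.95 and 8.97 and then 8.50 at day 6. All 6 pro-apoptotic members were lower than untreated at day 6, with a median change of -0.56, while all 3 anti-apoptotic ones were higher, with a median of 0.50, Mcl1 from 12.57 to 13.06 and Bcl2l1 from 8.29 to 8.90. This split held for the probe sets used, and other probe sets of the same genes broke it. At day 6 Bcl2l11 1426334_a_at read higher by 0.52, Bmf 1458325_x_at by 0.38, Bak1 1425716_s_at by 0.21 and Bmf 1422995_at by 0.03, while Bcl2 1440770_at read -0.25. The median over all genes was -0.09, and 2 of the 9 members were at least 2-fold lower at day 6, where 15.6% of genes were and 8.91% were at least 2-fold higher (24.5% in all). At day 4 no member reached 2-fold, against 13.9% of genes, and the medians were -0.31 and 0.20.

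Max-null ESCs overexpressing p110 alpha read otherwise with Dox for several members. Bid read 8.54 without and 8.85 with Dox, and Bmf 7.15 and 7.52, both higher. Bcl2l11 read 8.97 and 8.21, a change of -0.76 that was its lowest in any pair, and Bcl2 read 5.71 and 6.29. No member reached 2-fold in this pair, where 2% of genes did. In the probe set used, untreated p110 alpha cells already read lower for Bmf than untreated Max-null cells, 7.15 against 8.34 (2.28-fold). Neither other Bmf probe set read lower there, with 6.36 against 6.34 in 1458325_x_at and a slightly higher value in 1422995_at. Bbc3 read higher in untreated p110 alpha cells, 8.25 against 7.57 (1.60-fold). Of all genes 4.78% were at least 2-fold lower and 1.34% at least 2-fold higher in that comparison of untreated arrays.

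Tested over the 5 Max-null arrays with line as a block, no member passed with Dox. The changes were -0.50 ± 0.50 for Bmf, -0.48 ± 0.42 for Bid and -0.45 ± 0.30 for Bcl2l11 (SE, n = 2 lines; limma adjusted p = 0.815, 0.804 and 0.800). All 3 anti-apoptotic changes were above 0 and all 6 pro-apoptotic ones below, with medians of 0.27 and -0.45 against -0.03 over all genes. This held for the probe sets used, since Bmf 1458325_x_at changed by 0.20. The test called 0% of 13534 genes, and 701 had an unadjusted p under 0.05, none of them a member. Leaving out the p110 alpha line gave 1455 passing genes and leaving out day 4 gave 54, and a fit over all 18 arrays gave 1823, again with no member among them.

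The difference between the lines in their Dox change was tested with 1 residual degree of freedom, set by day 4 against day 6. It was 1.40 ± 0.60 for Bid (95% interval 0.07 to 2.73; limma adjusted p = 0.270), 1.52 ± 0.71 for Bmf (95% interval -0.06 to 3.09; adjusted p = 0.316), 0.53 ± 0.51 for Bak1 (adjusted p = 0.660), -0.49 ± 0.51 for Mcl1 (adjusted p = 0.682) and -0.55 ± 0.54 for Bcl2l11 (adjusted p = 0.663). None of the 9 passed, where 1.9% of genes did. The median over all genes was 0.17 in this difference, 0.30 after centring each array on its median and -0.01 after quantile normalization, and the 257 passing genes split into 124 higher and 133 lower, against 281 and 155 and against 13 and 87 under those scalings.

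Markers of other cell types moved with the days of Dox. The mean level of the 8 primitive endoderm markers was 5.08 untreated, 5.62 at day 4 and 6.06 at day 6 in Max-null ESCs, with 3, 6 and 6 above the level, and 5.65 and 5.59 in the p110 alpha line without and with Dox. That of the 8 trophoblast markers was 6.03, 6.26 and 7.14, with 6 above the level each time, and 6.11 and 6.19 with p110 alpha. The 8 ESC markers averaged 11.92, 11.91 and 11.49, and 11.88 and 11.99. Max-null day 6 also had the highest array median. The part of these in the values of the members was not tested.

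Where a gene had several probe sets, their agreement differed between members. All 5 probe sets of Bcl2l11 rose by day 5 in the 9-array fit, by 1.12 to 1.63, and all 5 from day 2 to day 5, by 0.66 to 1.06, when probe sets were tested one by one with limma. At day 2 the sets 1456006_at and 1426334_a_at passed (0.56, adjusted p = 0.00388 and 0.66, adjusted p = 0.00841), unlike the one with the highest mean. In the c-Myc lines of the 8-array fit none of the 5 passed one by one, with adjusted p-values of 0.0564 to 0.0793. Of the 6 Mcl1 probe sets, 1448503_at and 1416881_at rose at both days and the other 4 did not pass, with day 5 changes of 0.05 to 0.14. For Bmf, 1454880_s_at rose at both days and 1458325_x_at did not pass at day 2 (0.08) or day 5 (0.33). At day 6 of Dox the Bmf probe sets disagreed, with -1.77 for 1454880_s_at and 0.38 for 1458325_x_at, while the third, 1422995_at, was above the level on 3 of 18 arrays. The second Bak1 probe set, 1425716_s_at, did not pass at day 2 (0.06) and rose at day 5 (0.36, adjusted p = 0.0278), and with Dox it read -0.23 at day 4, 0.21 at day 6 and 0.00 with p110 alpha. The second Bad probe set, 1416583_at, rose at day 5 (0.22, adjusted p = 0.0443). The 3 Bid probe sets read -1.48, -0.88 and -1.52 at day 6 of Dox in Max-null ESCs, and 0.32, 0.43 and -0.24 with Dox in the p110 alpha line. Which transcripts or exons each probe set covers is not stated in the files used here.

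**Figure D4:**
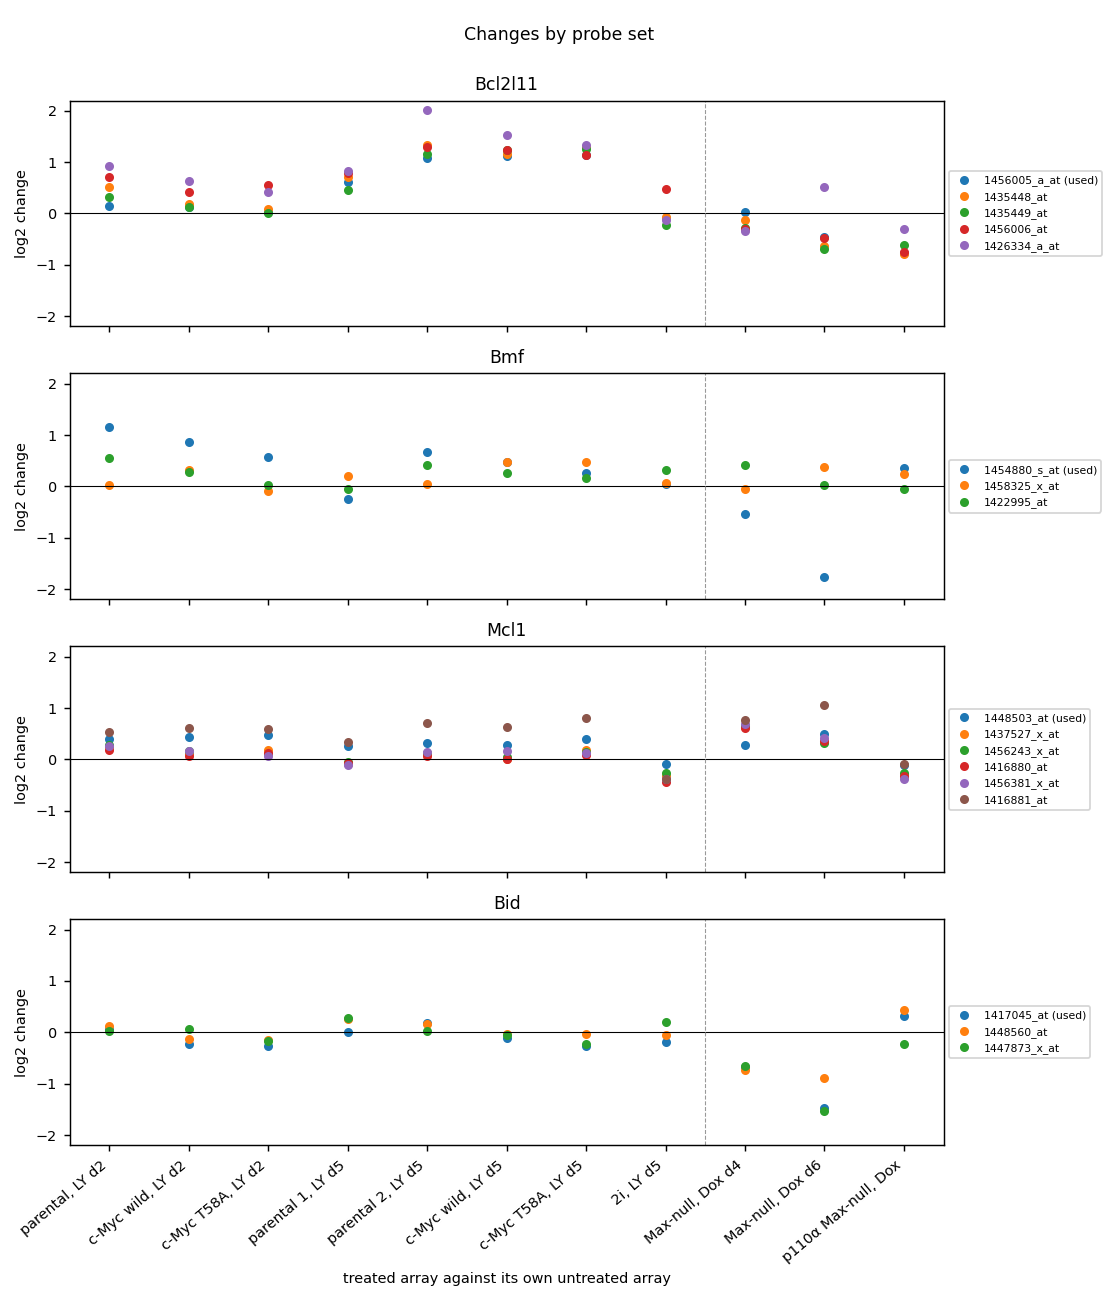
Log2 change (vertical axis) of each probe set of Bcl2l11, Bmf, Mcl1 and Bid in each treated array against its own untreated array (horizontal axis, Dox right of the dashed line), with 1 colour per probe set and the set used for the gene marked as used. The 5 Bcl2l11 sets lie together above 1.08 in the 3 later serum pairs at day 5, and the Bmf sets spread from -1.77 to 0.38 at day 6 of Dox.

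The rest of the death pathway was read from 4 lists. Of 9 tested genes of the Bcl2 family outside the members, 3 rose and 1 fell at day 2 and 4 rose and 1 fell at day 5 in the 9-array fit. Over all genes of that fit 18.3% rose and 12.3% fell at day 2, and 25.7% and 18.5% at day 5, which is the background for the counts of all 4 lists. Bnip3, a mitophagy receptor of the family, rose by 2.39 and 3.64 (limma adjusted p = 0.000854 and 0.000117). Pmaip1, which encodes the BH3-only protein Noxa, rose by 1.11 and 1.31, and in the c-Myc lines of the 8-array fit by 1.49 ± 0.15 (adjusted p = 0.0392). Hrk, another BH3-only gene, fell by 1.21 and 1.66. The list medians were 0.08 and 0.15, against 0.04 and 0.05 over all genes.

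Of 15 genes for caspases, the apoptosome and inhibitors of apoptosis, 2 rose at day 2, Endog (0.99) and Casp6 (0.65), and 5 rose and 2 fell at day 5, against 30.5% and 44.1% of all genes passing at these days. Endog, a mitochondrial nuclease, rose by 1.20 and Casp6, an executioner caspase, by 1.36, while Casp2 fell by 0.34 at day 5. Of 6 tested death receptor genes only Tnfrsf1a, the TNF receptor, fell at day 2 (-0.32, adjusted p = 0.0237), and only Tradd, its adaptor, rose at day 5 (0.27, adjusted p = 0.0193).

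Of 17 upstream regulators of the family 5 rose and 4 fell at day 2, and 6 rose and 6 fell at day 5, against the same background. Pim2, a kinase that phosphorylates Bad, rose by 2.59 and 3.35, and by 3.24 in both coefficients of the 8-array fit (limma adjusted p = 0.0437 and 0.0310). With a c-Myc line left out these calls of Pim2 and Pmaip1 in the 8-array fit no longer passed, at adjusted p-values of 0.114 to 0.573. Mdm2, the ubiquitin ligase of p53, fell by 0.95 and 1.11, and the FOXO gene Foxo4 rose by 0.66 and 0.80. From day 2 to day 5 Casp6 rose by 0.71, Akt1 rose by 0.62 and Ddit3, which encodes Chop and is a known activator of Bcl2l11, fell by 1.93 (adjusted p = 0.0300, 0.0278 and 0.0397). No gene of the 4 lists passed with Dox or in the difference between the Max-null lines.

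The genes whose 11 single-pair changes were most like those of a member were named for 3 members, over 14065 genes. For Bcl2l11 they were Fjx1 (Pearson r = 0.940), Cldn6 (0.912) and Ptprf (0.905). For Bbc3 they were Gadd45a (0.924), Spry4 (0.912) and Abhd16a (0.907), and for Bcl2 they were Plekhm2 (0.932), Mapkbp1 (0.878) and Rnf186 (0.860). These values are descriptions, since several pairs share an untreated array and the genes were taken as the highest among all.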

How the data were processed

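RNA of 18 mouse ESC samples was measured on Affymetrix arrays. Values in the deposited table are log2 intensities per probe set, made by the authors with RMA (affy), per the submitters' processing notes, while versions and settings are not given in the sources used here. Of 45101 probe sets, 64 were controls, 34945 named 1 gene, 932 named several and 9160 none in the platform annotation, and 34741 were matched to RefSeq genes. Tests used lmFit and eBayes of limma 3.58.1 in R 4.3.3, 2-sided, Benjamini-Hochberg adjusted over all genes of a fit, at a threshold of 0.05. The fits had 2 residual degrees of freedom in 8 arrays (pair as block), 4 in 9 arrays (line as block), and 2, or 1 for the difference between lines, in the 5 Max-null arrays. The both-days Dox coefficient weights Max-null ESCs more than the p110 alpha line. Single pairs were described at 2-fold. Arrays give no count or depth, and how many there are sets the precision.

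Pairing came from the descriptions, which name each treated sample's reference. As a check, the difference between the parental replicates correlated over 13404 genes between untreated and day 5 arrays at r = 0.563, and that between the c-Myc lines at 0.172 for day 5 and 0.042 for day 2, so the pairing rests on the descriptions. All 9 measured members are named, with values in every sample where a member passed or reached 2-fold. Of each other list at most 3 passing genes by smallest p are named, and for Bcl2, Bcl2l11 and Bbc3 the 3 genes most like them. The members and lists were chosen with earlier results of these data known. Alternatives changed the level filter, scaling, probe set rule, prior, threshold, arrays in the fit, block and replicates. The code was tested on simulated data with planted changes. Of planted log2 changes of 2, both Dox tests recovered 0%, the c-Myc minus parental difference 38% and day 5 of the 9-array fit 99%. At a log2 change of 1 that c-Myc minus parental difference recovered 0%. The lack of a passing member in these 3 tests therefore does not show that no member changed. Proteins were not analysed here. RefSeq promoters were read in the 250 bases before each start.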

Additional observations from a re-analysis of the deposited data

Results flagged for a closer look

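Several members moved one way in every sample of one group and the other way in another. With LY294002 at day 5, the 2i pair changed by -0.0843 for Bcl2l11, against 0.616 to 1.14 in the 4 serum pairs, and by -0.0920 for Mcl1, against 0.251 to 0.387. For Mcl1 this holds for the probe set used, while 4 of its 6 probe sets read lower in parental serum replicate 1 too. These differences were not tested, since 2i has 1 pair, and 2i and serum replicate 1 share an inferred RMA run that the other serum pairs do not.

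With Dox, the p110 alpha line and both days of the Max-null line lay on opposite sides of 0 for 4 members. Bid changed by 0.319 with p110 alpha and by -1.48 and -0.682 without it, Bmf by 0.367 against -1.77 and -0.534, Bak1 by 0.102 against -0.538 and -0.313, and Mcl1 by -0.105 against 0.277 and 0.498. None of these 4 differences passed in the test of the difference between the lines, with limma adjusted p-values of 0.270 for Bid, 0.316 for Bmf, 0.660 for Bak1 and 0.682 for Mcl1. All 6 Mcl1 probe sets shared the pattern, but other probe sets of Bmf, Bak1 and Bid did not. At day 4, day 6 and with p110 alpha, Bmf 1458325_x_at read -0.05, 0.38 and 0.24, Bak1 1425716_s_at read -0.23, 0.21 and 0.00, and Bid 1447873_x_at read -0.66, -1.52 and -0.24.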

How the results depend on the processing

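Counts of members that passed depended on the arrays and lines in the fit more than on the level filter, centring or prior, under which no count of members changed. In parental pairs at day 5 the count was 0 of 9, 1 at a threshold of 0.1, 1 in a fit over all 18 arrays and 0 to 2 with a replicate left out. In the c-Myc lines it was 1, and 0 with the mean of all probe sets, 0 with probe sets tested one by one, 0 without the replicate block (Bcl2l11 1.13, adjusted p = 0.318) and 0 to 3 with a replicate left out. At day 2 in the 9-array fit it was 3, and 2 under quantile normalization, 1 over all 18 arrays and 1 to 2 with a line left out. At day 5 there it was 4, and 3 under quantile normalization, 2 over all 18 arrays and 1 to 5 with a line left out. The probe set rule also changed which members passed in that fit. With probe sets tested one by one, Bcl2l11 was added at day 2 and Bad at day 5. With the mean of all probe sets, Bcl2l11 passed at day 2 and Bak1 did not. From day 2 to day 5 the count was 1, and 2 at a threshold of 0.1, 0 over all 18 arrays and 0 to 1 with a line left out. For Dox and for both differences between lines it stayed at 0 under each alternative run. Without the replicate block the only other call that changed was Pim2 in parental pairs (adjusted p = 0.0530). Over all genes, passing counts were 71 in parental pairs (0 without a c-Myc line or the block, 4711 without replicate 1), 351 in the c-Myc lines (0 without either of them, 5527 without parental replicate 2), 4099 at day 2 (1010 without wild-type c-Myc), 5922 at day 5 (2881 without it), 315 from day 2 to day 5 (0 without either c-Myc line), 0 for Dox (1823 over 18 arrays), 257 for the difference of Dox between lines (2163 over 18 arrays) and 0 for that of LY294002 (1340 without parental replicate 2). Among 99 single-pair values 6 reached 2-fold and 13 reached 1.5-fold. Changes that reversed with a replicate left out were Bmf in parental pairs (range -0.247 to 0.672), Bcl2l1 at day 2 (-0.0825 to 0.0839), Bbc3 at day 5 of the 9-array fit (-0.146 to 0.0101) and Bid there (-0.189 to 0.0311). Bcl2l1 at day 2 also reversed under quantile normalization (-0.0676) and over 18 arrays (-0.0181). Of the other single-gene values under an alternative, 778 kept direction and side, 58 missed the threshold and 12 newly passed. The cause was not tested, beyond the fewer arrays that leaving out a line leaves. Leaving out a line for the difference of Dox between lines and fitting it without a block were not run, since the first would leave no residual degree of freedom and the second has no meaning there.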
